A study of Mus musculus with 8 samples.

Results

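The genes described here code for the machinery that starts, elongates, caps, severs and recycles actin filaments. They are the actin-related protein 2/3 (Arp2/3) complex, the WASP and WAVE proteins and cortactin that switch it on, the formins, the profilins and thymosins, cofilin 2 with the kinases and phosphatases that act on cofilin, the capping proteins with gelsolin, and the Ena/VASP proteins. The 44 members were listed by gene symbol, with no expression value in the rule. On the arrays 41 were found under the listed name, and Diaph1, Diaph2 and Diaph3 were found under their older names through RefSeq. They had 72 different probes on 88 spots, and 65 probes of 43 members passed the filter on dim probes, among 24667 probes of 18027 genes. The member left out by the filter was Fmnl1, a formin known from blood cells, whose only probe was above background on 0 arrays.

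The cells were B16, an established mouse melanoma line, grown in high-glucose medium with fetal bovine serum. RNA was taken from untreated control cells labelled 0 h, from cells given SEMA3E for 2 h or for 8 h, and from cells given cytochalasin D for 8 h, with 2 arrays in each of these 4 groups. SEMA3E is a secreted semaphorin that signals through plexin D1, and cytochalasin D is a fungal compound that blocks the growing end of actin filaments. The labels give no dose, no vehicle and no control kept for 8 h. Treatment and time in culture therefore cannot be told apart against control or between the SEMA3E times. Only cytochalasin D and SEMA3E at 8 h have the same labelled time, and B16 is 1 line. The arrays are labelled as biological replicates, and nothing says whether they came from separate cultures, so a p-value measures only the spread between these samples.

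Actin filaments start from a nucleus that single actin molecules form only slowly. The Arp2/3 complex starts a new filament as a branch on an old one once a WASP or WAVE protein activates it, whereas formins start unbranched filaments and stay on the growing end. Profilin feeds actin to the growing end, thymosin holds actin in reserve, capping protein stops growth, and cofilin takes old filaments apart. In melanocytes and melanoma cells this machinery shapes dendrites and protrusions and holds pigment organelles at the cell edge.

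Each value below is the log2 of the background-corrected signal of a probe after a 75th percentile of its array was subtracted. That percentile was taken over the probes above background on all 8 arrays. A value of 0 is therefore that percentile and a step of 1 is 2-fold. Each gene was read from its brightest probe, and the level of one probe is not compared with that of another. Between 37.8% and 48.2% of the spots of an array were above background. SEMA3E 2 h and cytochalasin D replicate 2 gave the dimmest arrays. Their 75th percentiles over all spots other than control spots were 59.3, 61.1 and 66.8 against 111 to 154 elsewhere. These are not the percentiles subtracted. On SEMA3E 2 h replicate 2 the scanner marked 214 spots as outliers and the spike-in controls had a median coefficient of variation of 22.2%, against at most 24 spots and 12.3% elsewhere. The mean net signal of the negative control spots was 41.56 on SEMA3E 8 h replicate 2 and 17.93 to 22.25 on the other arrays. Its part in the values of dim probes was not tested. All 7 melanocyte markers were above background on all 8 arrays. Their summed level was 6.51 to 6.59 in controls, 6.81 to 7.10 and 6.52 to 6.63 after SEMA3E for 2 h and 8 h, and 6.64 to 6.74 after cytochalasin D. Lyz2 and Nckap1l of 9 leukocyte markers, Lum and Pdgfra of 5 fibroblast markers, Tek and Cdh5 of 4 endothelial markers and Krt1 and Krt10 of 4 keratinocyte markers were above background on no array, and 3, 2, 2 and 0 of these lists were on all 8. The summed leukocyte level was -3.62 to -3.41 in controls, -3.21 to -2.88 and -3.13 to -2.77 after SEMA3E for 2 h and 8 h, and -3.55 to -3.32 after cytochalasin D. The fibroblast sum was -2.93 to -2.77, -3.09 to -2.71, -2.87 to -2.77 and -3.19 to -2.92 in the same order, and the endothelial sum -4.43 to -4.02, -4.32 to -2.94, -3.71 to -3.5 and -3.94 to -3.38. The keratinocyte sum was -6.45 to -6.14, -5.73 to -5.68, -6.12 to -4.91 and -6.60 to -6.07. The part of these shifts in the members' values was not tested.

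No member passed the test in any comparison. With limma and Benjamini-Hochberg adjustment over all 18027 genes, 0 of 43 members had an adjusted p under 0.05 after 2 h of SEMA3E against control (0% of all genes), after 8 h of SEMA3E (0.00555% of all genes), after cytochalasin D (0%), between cytochalasin D and SEMA3E at 8 h (0.00555%) and between the SEMA3E times (0%). The F test over the 4 groups also called 0 members (0% of all genes). The smallest adjusted p of a member in these 5 comparisons was 0.49, 0.853, 0.9997, 0.439 and 0.423. At an unadjusted limma p under 0.05 there was 1 member, Diaph2, in the first comparison (9.47% of all genes), 0 in the second (6.14%), 1, Arpc1a, in the third (2.44%), 1, Wasf2, in the fourth (11%) and 1, Vasp, in the fifth (11.6%). The F test gave Wasf2, Diaph2 and Limk1, 3 of 43, at that limit (10.4% of all genes). These shares lie near or below those of all genes, so the values that follow describe arrays and are no calls. The median standard error of a fitted difference over all genes was 0.34.

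**Figure D1:**
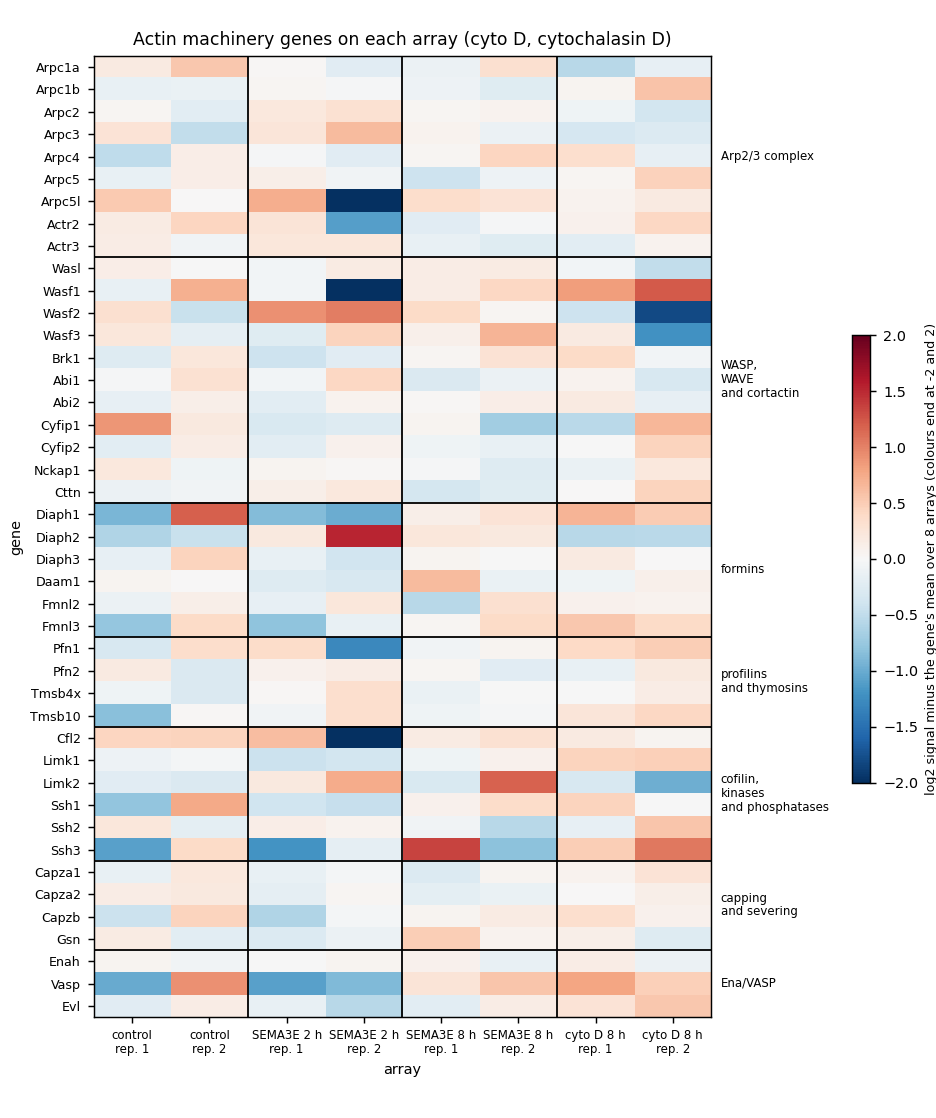
Log2 signal of the 43 measured actin machinery genes (rows, by role) on the 8 arrays (columns), each as the deviation from the gene's own mean, with red above and blue below. Single dark cells stand out on SEMA3E 2 h replicate 2 (Arpc5l, Wasf1 and Cfl2 low, Diaph2 high), while most rows stay pale, with a median range of 0.96 over the arrays.

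On the brightest probes, the range from the lowest to the highest array had a median of 0.96 over the members and 1.17 over all genes, and it was under 2-fold in 22 of 43 members (51.2%) and in 39.3% of all genes. The smallest was 0.29 in Enah, the vertebrate Mena protein that speeds up filament growth, and the largest was 4.35 in Wasf1, the WAVE1 subunit. The 2 arrays of a group differed by over 2-fold in 5 members for control, 7 for SEMA3E 2 h, 2 for SEMA3E 8 h and 3 for cytochalasin D. Those are 11.6%, 16.3%, 4.65% and 6.98% of the members, beside 14.2%, 14.2%, 9.66% and 8.75% of all genes.

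The Arp2/3 complex consists of the actin-related proteins Actr2 (Arp2) and Actr3 (Arp3) and 5 further subunits, ARPC1 to ARPC5, of which ARPC1 and ARPC5 each exist as a pair of paralogs. Promoter sequences of 8 of these 9 genes were in the RefSeq table (mouse build GRCm38), which covers 250 bases before to 50 after a gene's start. They are shown because 5 of the 8 shared the letters CCGGAAGT, an ETS-type motif. The capitals mark those letters, in 30 bases of the gene's strand. In Arpc1a and Actr2 they read on the opposite strand.
Actr3 (chr1:125435717-125435746, minus strand): cccacccggaaCCGGAAGTgggagcgatcg
Arpc3 (chr5:122391856-122391885, plus strand): ggagcaagtcaCCGGAAGTgcgtttattcc
Arpc1a (chr5:145083832-145083861, plus strand): gcgctccggtcACTTCCGGgatctgtcagc
Arpc4 (chr6:113378090-113378119, plus strand): gatggtccagcCCGGAAGTgctgtcggaga
Actr2 (chr11:20112925-20112954, minus strand): gccgggcggggACTTCCGGtttgggcggag

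The motif began between 26 bases before and 9 bases after the start in these 5 genes. The table held 38 of the 44 members with 50 promoters, and the 5 Arp2/3 genes were the only members with the motif, in 5 of 50 promoters (10%) against 3.89% of all 32851 promoters. It was 1 of 12 patterns searched on both strands. GGGCGG, the core of a GC box, was in 38 of 50 member promoters (76%, against 35.7% of all), TATAAA was in 0 (13.6% of all), and the CArG box bound by SRF was in 1, of Arpc4 (1.63% of all). The share of CCAAT was 32% against 37.4%, and that of CACGTG was 8% against 7.15%. TGACTCA was in 2% against 5.2%, GGAATG in 12% against 14.7%, and the NRF1 motif in 4% against 0.971%. TCATGTGA, TGACGTCA and the YY1 motif were in 0 member promoters and in 0.986%, 1.79% and 0.633% of all. Some of these patterns overlap in a promoter. A match is a stretch of letters and not a bound site. The 5 genes with CCGGAAGT did not share a direction: after 2 h of SEMA3E the fitted differences were 0.55 for Arpc3, 0.19 for Actr3, 0.07 for Arpc4, -0.46 for Arpc1a and -0.72 for Actr2.

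Of the 9 Arp2/3 genes, 6 lay above 0 after 2 h of SEMA3E, 4 after 8 h and 3 after cytochalasin D. Over 5 other ways of background correction and scaling these counts were 0 to 6, 0 to 4 and, for cytochalasin D, 3 each time. Arpc3, one of the smaller subunits, was at 2.97 and 2.20 in controls, 2.94 and 3.34 after 2 h of SEMA3E, 2.78 and 2.59 after 8 h, and 2.37 and 2.43 after cytochalasin D. The 2 h arrays lay within or above the control pair, a difference of 0.55 ± 0.33 (SE, limma adjusted p 0.582). It was 0.94 without control replicate 1, 0.17 without control replicate 2 and 0.36 without SEMA3E 2 h replicate 2. Arpc4, part of the core that holds the complex together, was at -0.77 and -0.13 in controls and at -0.21 and 0.17 after 8 h of SEMA3E, an overlap with a difference of 0.43 ± 0.33 (limma adjusted p 0.888). That was 0.11 and 0.75 without control replicate 1 and 2, and 0.24 without SEMA3E 8 h replicate 2. It was at -0.28 and -0.48 after 2 h and at 0.07 and -0.42 after cytochalasin D.

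The ARPC1 paralogs lay apart in the cytochalasin D arrays. Arpc1a was at 0.02 and 0.37 in controls, -0.14 and -0.39 after 2 h of SEMA3E, -0.27 and 0.16 after 8 h, and -0.72 and -0.32 after cytochalasin D. Both cytochalasin D arrays were below both controls, by -0.71 ± 0.30 (limma adjusted p 0.9997). Arpc1b was at 1.59 on both controls, 1.76 and 1.71 after 2 h, 1.62 and 1.48 after 8 h, and 1.79 and 2.30 after cytochalasin D. There both cytochalasin D arrays were the highest, by 0.45 ± 0.27 over control (limma adjusted p 0.9997) and by 0.49 ± 0.27 over SEMA3E 8 h (limma adjusted p 0.516). Without cytochalasin D replicate 2 these Arpc1b differences were 0.20 and 0.24. The difference between the paralogs was not tested. Of Arpc5 and Arpc5l, Arpc5 stayed between 3.87 and 4.74 on all arrays. Arpc5l was at 0.96 and 0.44 in controls, 1.15 and -1.70 after 2 h, 0.79 and 0.71 after 8 h, and 0.51 and 0.62 after cytochalasin D. Its low value was that of 1 array, SEMA3E 2 h replicate 2, and the other 7 lay between 0.44 and 1.15.

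Actr3 had the narrowest range of the complex, 0.47. It was at 3.49 and 3.27 in controls, 3.56 and 3.57 after 2 h of SEMA3E, 3.19 and 3.10 after 8 h, and 3.14 and 3.42 after cytochalasin D. The 8 h pair lay below the 2 h pair by -0.42 ± 0.25 (limma adjusted p 0.489). Actr2 was at 0.70 and 0.96 in controls, 0.79 and -0.56 after 2 h, 0.30 and 0.52 after 8 h, and 0.62 and 0.95 after cytochalasin D, again with 1 low array, SEMA3E 2 h replicate 2. Arpc2, the other core subunit, stayed between 2.67 and 3.35.

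**Figure D2:**
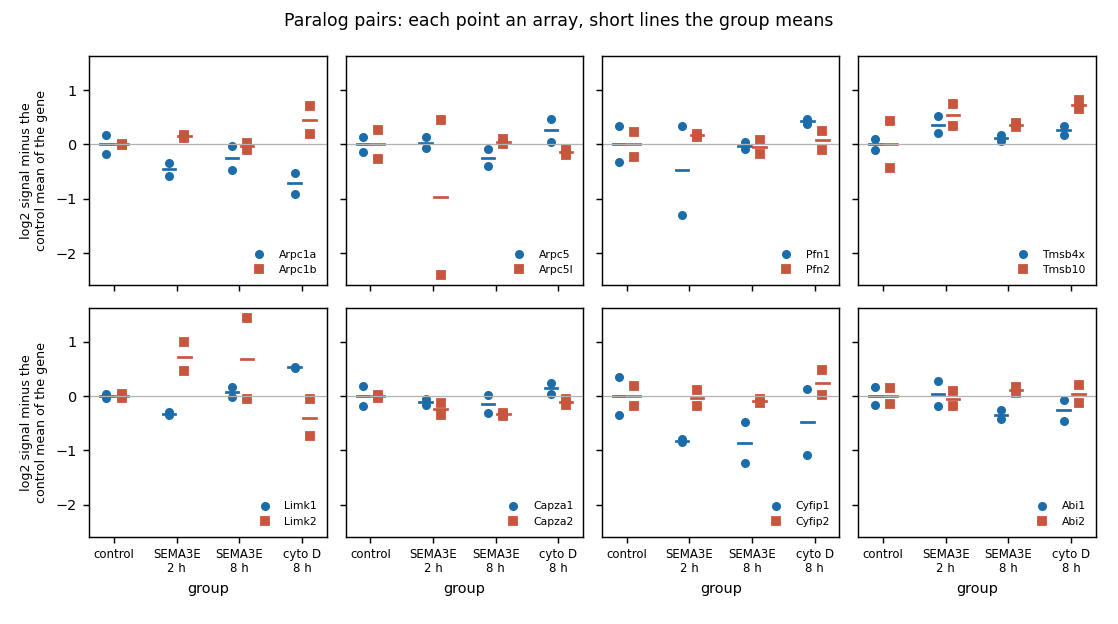
Log2 signal of 8 paralog pairs minus the gene's control mean (vertical axis) in the 4 groups (horizontal axis), with each point an array and each short line a group mean. Arpc1a lies below and Arpc1b above 0 on both cytochalasin D arrays, and Arpc5l and Pfn1 each have 1 low point at SEMA3E 2 h.

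The activators of the Arp2/3 complex include the largest spread of the set, 4.35 in Wasf1. Their median range was 0.79, beside 0.96 over all members. Wasf2 codes for WAVE2, the WAVE protein of lamellipodia. It was at -0.15 and -0.92 in controls, 0.45 and 0.55 after 2 h of SEMA3E, -0.09 and -0.43 after 8 h, and -0.89 and -2.28 after cytochalasin D. Both 2 h arrays were above every other array, by 1.03 ± 0.48 over control (limma adjusted p 0.518; 0.65 without control replicate 2), and both cytochalasin D arrays were below the 8 h SEMA3E pair, by -1.33 ± 0.48 (limma adjusted p 0.439). Against control the cytochalasin D arrays overlapped, with a difference of -1.05 ± 0.48 (limma adjusted p 0.9997). Without cytochalasin D replicate 2 that difference was -0.36 (-0.67 without control replicate 1), and the one against SEMA3E 8 h was -0.63. The second Wasf2 probe had the same order of groups, at -4.45 and -5.84, -3.98 and -3.95, -4.82 and -5.08, and -6.23 and -7.19. The third did not: it was at -6.07 and -4.99 in controls and at -5.34 and -5.95 after cytochalasin D.

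Wasf1 was at -0.64 and 0.21 in controls, -0.55 and -3.63 after 2 h of SEMA3E, -0.36 and -0.09 after 8 h, and 0.33 and 0.72 after cytochalasin D. The fitted difference of -1.88 ± 0.87 after 2 h (limma adjusted p 0.518) was -0.34 without SEMA3E 2 h replicate 2. The 8 h SEMA3E mean was 1.87 ± 0.87 above the 2 h mean (limma adjusted p 0.438), and that was 0.33 without the same array. Both cytochalasin D arrays were above both controls, by 0.74 ± 0.87 in the same fit. Wasf3, at -7.11 and -7.50 in controls, was not well above background on either SEMA3E 2 h array. It was at -7.57 and -6.88 on those arrays and at -7.23 and -6.65 after 8 h of SEMA3E. The SEMA3E pairs overlapped, with a difference of 0.29 ± 0.51 in the fit over all probes. Cytochalasin D replicate 1 was at -7.16, and replicate 2, not above background, at -8.54, so the fitted difference of -0.91 ± 0.50 from SEMA3E 8 h (limma adjusted p 0.516) rests in part on a reading at background, and was -0.22 without that array.

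Cyfip1, a WAVE complex subunit that binds Rac, was at 0.53 and -0.16 in controls, -0.67 and -0.61 after 2 h of SEMA3E, -0.30 and -1.05 after 8 h, and -0.90 and 0.31 after cytochalasin D. All 4 SEMA3E arrays were below both controls, by -0.82 ± 0.47 at 2 h (limma adjusted p 0.572) and -0.86 ± 0.47 at 8 h (limma adjusted p 0.853), and these comparisons share the controls. Without control replicate 1 the Cyfip1 differences were -0.48 and -0.51, and the latter was -0.48 without SEMA3E 8 h replicate 2. Its paralog Cyfip2 stayed between -0.90 and -0.23. Abi1 was at -3.43 and -3.10 in controls and at -3.70 and -3.53 after 8 h of SEMA3E, the lower pair by -0.34 ± 0.29 (limma adjusted p 0.903), -0.18 without control replicate 2. It was at -3.46 and -2.99 after 2 h and -3.34 and -3.72 after cytochalasin D. Abi2 had the narrowest range of this group, 0.39.

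Wasl codes for N-WASP. Its levels were -2.30 and -2.43 in controls, -2.48 and -2.27 after 2 h, -2.29 and -2.26 after 8 h, and -2.49 and -2.92 after cytochalasin D, the lowest pair, by -0.34 ± 0.26 against control (limma adjusted p 0.9997), -0.13 without cytochalasin D replicate 2. Cortactin, which steadies branches, was read from Cttn at 2.94 and 2.98 in controls, 3.17 and 3.28 after 2 h, 2.71 and 2.82 after 8 h, and 3.07 and 3.5 after cytochalasin D. The control, 2 h and 8 h pairs did not overlap. The 8 h pair was lowest, -0.46 ± 0.26 from the 2 h pair (limma adjusted p 0.473), and cytochalasin D was 0.52 ± 0.26 above the 8 h pair (limma adjusted p 0.485), 0.31 without cytochalasin D replicate 2. Brk1 and Nckap1 stayed within ranges of 0.80 and 0.46.

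Of the formins, Diaph2 (mDia3) had the lowest p of any member after 2 h of SEMA3E. It was at -6.08 and -5.91 in controls, -5.27 and -3.94 after 2 h, -5.25 and -5.27 after 8 h, and -6.02 and -6.01 after cytochalasin D. All 4 SEMA3E arrays were above all 4 arrays without SEMA3E. The difference from control was 1.39 ± 0.42 at 2 h (limma adjusted p 0.49), 0.73 without SEMA3E 2 h replicate 2, and it was 0.73 ± 0.42 at 8 h (limma adjusted p 0.86). The 8 h mean was -0.66 ± 0.42 from the 2 h mean (limma adjusted p 0.507) and 0.01 without that replicate. The second Diaph2 probe was at -6.71 and -6.68, -6.62 and -5.91, -6.25 and -6.00, and -6.70 and -8.11 in the same order of groups, again with the SEMA3E arrays above both controls, and cytochalasin D replicate 2 was not above background. Both Diaph2 probes were dim. With no filter on dim probes the median difference of all genes was 0.48 after 2 h of SEMA3E and 0.53 after 8 h. It was 0.06 and 0.12 with the filter. The part of this upward shift of dim probes in the Diaph2 values was not tested.

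Diaph1 (mDia1) was at -5.72 and -3.61 in controls, -5.67 and -5.79 after 2 h, -4.68 and -4.52 after 8 h, and -4.12 and -4.29 after cytochalasin D. The controls differed by over 4-fold, so the 2 h difference of -1.07 ± 0.60 (limma adjusted p 0.566) was -0.01 without control replicate 2. The 8 h SEMA3E pair was above the 2 h pair by 1.13 ± 0.60 (limma adjusted p 0.459). Its second probe, above background on 4 arrays, went the other way after 2 h, by 1.28 ± 0.41 (limma adjusted p 0.518 over all probes). Diaph3, Daam1, Fmnl2 and Fmnl3 had ranges of 0.83, 0.96, 0.87 and 1.34.

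Profilins and thymosins bind single actin molecules. On their brightest probes all 4 lay above 0 after cytochalasin D, against control (fitted differences 0.08 to 0.73) and against SEMA3E 8 h (0.12 to 0.46). Against control the count was 4 in 4 of 5 other scalings and 3 when arrays were centred on the median of all probes, and against SEMA3E 8 h it was 4 in all 5. Counted above the median of all genes instead, it was 2 and 3 with normexp background and 4 in the others. Tmsb10 was at 1.38 and 2.25 in controls, 2.15 and 2.56 after 2 h of SEMA3E, 2.13 and 2.20 after 8 h, and 2.46 and 2.63 after cytochalasin D. The cytochalasin D pair was the higher by 0.73 ± 0.34 (limma adjusted p 0.9997), which was 0.30 without control replicate 1. Its second probe was at 0.60 and 1.20 in controls and at 1.62 and 1.67 after cytochalasin D, and Tmsb4x, the other thymosin, was at 1.04 and 0.85, then 1.12 and 1.28. Pfn1 was at -0.61 and 0.05 in controls, 0.06 and -1.58 after 2 h, -0.37 and -0.25 after 8 h, and 0.10 and 0.19 after cytochalasin D. The second Pfn1 probe went the other way after cytochalasin D, by -0.34 ± 0.82 against control and -0.30 ± 0.82 against SEMA3E 8 h. Pfn2 stayed between -0.78 and -0.29, the narrowest range of these 4, 0.48.

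Cfl2, the muscle-type cofilin, was at 0.75 and 0.76 in controls, 0.92 and -1.89 after 2 h of SEMA3E, 0.47 and 0.62 after 8 h, and 0.50 and 0.37 after cytochalasin D. The 2 h difference of -1.24 ± 0.77 came from 1 array, and 7 of 8 arrays lay between 0.37 and 0.92. The LIM kinases switch cofilin off and the slingshot phosphatases switch it on. Limk1 was at -0.75 and -0.68 in controls, -1.07 and -1.0 after 2 h, -0.74 and -0.55 after 8 h, and -0.20 and -0.17 after cytochalasin D. The cytochalasin D arrays were the highest of all 8, by 0.53 ± 0.24 over control (limma adjusted p 0.9997) and by 0.46 ± 0.24 over SEMA3E 8 h (limma adjusted p 0.495), and the 2 h arrays were the lowest.

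Limk2 was at -7.36 and -7.42 in controls, -6.94 and -6.40 after 2 h, -7.44 and -5.96 after 8 h, and -7.45 and -8.12 after cytochalasin D, and was above background on 1 of 2 SEMA3E 2 h arrays, 1 of 2 cytochalasin D arrays and both arrays of the other groups. Its 8 h difference of 0.69 ± 0.50 (limma adjusted p 0.885) was -0.05 without SEMA3E 8 h replicate 2, and cytochalasin D was -1.09 ± 0.50 from SEMA3E 8 h (limma adjusted p 0.473), in part from a reading at background, and -0.34 without SEMA3E 8 h replicate 2. Ssh3 was above background on 1 control array, on neither SEMA3E 2 h array, on 1 of the 8 h arrays and on both cytochalasin D arrays, through which alone it passed the filter. It was at -9.28 and -7.82 in controls and at -7.70 and -7.14 after cytochalasin D. Ssh1, at -4.90 and -3.35 in controls, stayed between those values on the other 6 arrays, and Ssh2 between -1.75 and -0.64.

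Capping and severing genes had a median range of 0.66 on their brightest probes, and wider ranges on the other probes of Capza1, Capzb and Gsn. Capza2, an alpha subunit of capping protein, was at 2.10 and 2.16 in controls, 1.78 and 2.00 after 2 h of SEMA3E, 1.77 and 1.82 after 8 h, and 1.97 and 2.07 after cytochalasin D. Both controls were above all 6 other arrays, and the 8 h difference was -0.34 ± 0.24 (limma adjusted p 0.885), over a range of 0.39. All 4 genes of this group lay below 0 after 2 h of SEMA3E (-0.33 to -0.12), in each of 5 other scalings too, and none passed the test. The brightest probe of Capza1, the other alpha subunit, stayed between 2.20 and 2.76, that of Gsn (gelsolin) between -0.66 and 0.11, and that of Capzb, the beta subunit, between -0.79 and 0.25.

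The other probes of Capza1 ranged over 2.38, 1.65 and 1.26, that of Capzb over 2.22 and that of Gsn over 2.05. Capza1 probe 2 was at -2.28 and -1.05 in controls, -3.13 and -3.43 after 2 h of SEMA3E, -2.39 and -1.87 after 8 h, and -1.62 and -1.54 after cytochalasin D. Both 2 h arrays were the lowest, by -1.61 ± 0.43 from control (limma adjusted p 0.489 over all probes). Probe 4 of Capza1 was at -2.43 and -2.32 in controls and at -3.24 and -3.58 after 2 h, also the lowest pair, by -1.03 ± 0.26 (limma adjusted p 0.471). Capza1 probe 3, above background on 4 arrays, differed by -1.09 ± 0.34 (limma adjusted p 0.518) and Capzb probe 2 by -1.24 ± 0.48 (limma adjusted p 0.529). Beside these, probe 1 of Capza1 gave -0.12 ± 0.28. At an unadjusted limma p under 0.05, these 4 were the lower ones of the 65 member probes after 2 h (4.16% of all probes) and 2 were higher, of Diaph1 and Diaph2 (5.03%). After 8 h of SEMA3E 1 member probe was higher, of Diaph1 (5.68% of all probes), and 1 lower, of Capza1 (0.778%). After cytochalasin D 1 was higher, of Tmsb10 (0.62%), and 3 lower, of Abi2, Arpc3 and Wasf2 (1.93%). Against SEMA3E 8 h 0 were higher (1.79%) and 4 lower, of Arpc3, Diaph2 and a pair of Wasf2 probes (9.45%). Between the SEMA3E times 3 were higher, of Capza1, Capzb and Vasp (9.26%), and 1 lower, of Wasl (2.81%). At an adjusted limma p under 0.05 there were 0 member probes in each comparison.

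Ena/VASP proteins lengthen filaments by holding off capping protein. By its brightest probe Enah was the steadiest member, at -1.01 and -1.14 in controls, -1.08 and -1.01 after 2 h, -0.98 and -1.21 after 8 h, and -0.92 and -1.18 after cytochalasin D. Its second probe ranged over 4.19. Vasp was at -2.46 and -0.55 in controls, -2.55 and -2.35 after 2 h of SEMA3E, -1.21 and -0.90 after 8 h, and -0.67 and -0.99 after cytochalasin D. Its 8 h SEMA3E pair was 1.39 ± 0.56 above the 2 h pair (limma adjusted p 0.423), the lowest p of a member there, and 1 control lay with each side. Evl was at 1.73 and 2.11 in controls, 1.82 and 1.41 after 2 h, 1.75 and 2.11 after 8 h, and 2.24 and 2.51 after cytochalasin D, the highest pair.

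**Figure D3:**
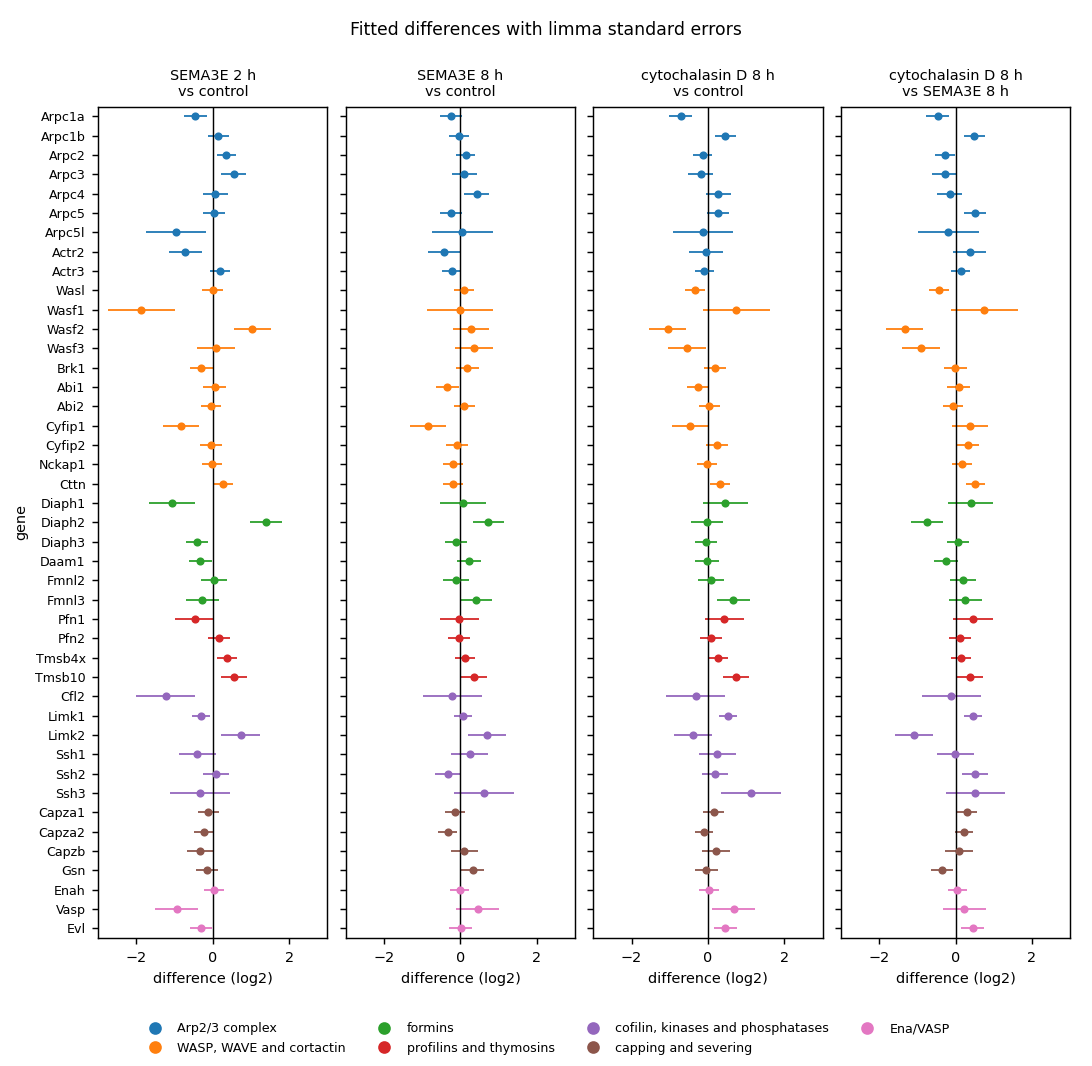
Fitted log2 differences (horizontal axis) of the 43 measured genes (vertical axis, coloured by role) in 4 comparisons, with limma standard errors as bars. Wasf1 lies farthest from 0, at -1.88 after 2 h of SEMA3E, with a bar of 0.87 on each side, and Diaph2 at 1.39 is the highest point there, with a bar of 0.42.

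Across the set, 18 of 43 members lay above 0 after 2 h of SEMA3E (54.9% of all genes), 23 after 8 h (63.3%), 24 after cytochalasin D (53.4%), 27 for cytochalasin D against SEMA3E 8 h (39.7%) and 22 for the 8 h against the 2 h arrays (56.4%). The members' median differences were -0.05, 0.05, 0.07, 0.13 and 0.10, beside 0.06, 0.12, 0.03, -0.13 and 0.09 over all genes. In the comparison of cytochalasin D with SEMA3E at 8 h, 31 members lay above the median of all genes, and 24 to 31 did under 5 other scalings. Differences over 1 in size were found in 5 members after 2 h (10.8% of all genes), 0 after 8 h (7.26%), 2 after cytochalasin D (3.68%), 2 for cytochalasin D against SEMA3E 8 h (10.5%) and 5 between the SEMA3E times (13.8%). The 2 after cytochalasin D were Wasf2 and Ssh3. Ssh3, also among the 24 above 0, passed the filter only through the cytochalasin D arrays, so its place in these counts is no support.

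Groups did not overlap in 13 of 43 members after 2 h of SEMA3E (39.7% of all genes), in 10 after 8 h (37.4%), in 15 after cytochalasin D (28.9%), in 22 for cytochalasin D against SEMA3E 8 h (52.4%) and in 24 between the SEMA3E times (50.5%). As shares of the members these are 30.2%, 23.3%, 34.9%, 51.2% and 55.8%. They lay above the share of all genes after cytochalasin D and between the SEMA3E times, and below it in the other comparisons. No test was made of these shares. By direction, the first comparison had 8 higher (24.5% of all genes) and 5 lower (15.1%), the second 3 higher (25.1%) and 7 lower (12.3%), and the third 10 higher (15.9%) and 5 lower (13%). The fourth had 14 higher (19.6%) and 8 lower (32.8%), and the fifth 12 higher (27.9%) and 12 lower (22.7%). As shares of the members, the higher ones were 18.6%, 6.98%, 23.3%, 32.6% and 27.9%. The lower ones were 11.6%, 16.3%, 11.6%, 18.6% and 27.9%. Ssh3, among the 10 higher after cytochalasin D, passed the filter only through the cytochalasin D arrays.

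Single arrays accounted for many of the wide values. SEMA3E 2 h replicate 2 lay over 1 below every other array in 3 members, Arpc5l, Wasf1 and Cfl2 (6.98%, against 4.01% of all genes), and over 1 above every other in Diaph2 (0.338% of all genes). Cytochalasin D replicate 2 did so below in Wasf2 (1.59% of all genes). When the other SEMA3E 2 h array, replicate 1, was left out, so that replicate 2 stood alone, Arpc5l, Cfl2, Diaph2 and Wasf1 passed the test after 2 h, with limma adjusted p-values of 0.0276, 0.0261, 0.0282 and 0.0264, and 416 genes did in all. Arpc5l, Cfl2 and Wasf1 then also passed between the SEMA3E times, with 460 genes in all. The lone array was taken to vary like the other groups in that fit, and the part of its outlier marks and spike-in spread in these values was not tested.

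A further arrangement was noticed after the values were seen and has no test. Control replicate 1 and both SEMA3E 2 h arrays were the 3 lowest in 15 of 65 member probes (23.1%, against 11% of all probes) and the 3 highest in 4 (6.15%, against 7.56%). Vasp, Fmnl3, Ssh1, Capzb, Limk1 and Tmsb10 are among the 15. The first principal component of the genes outside the set, with 37.7% of their variance, also placed these 3 arrays below 0, at -0.23, -0.43 and -0.58, and the other 5 between 0.05 and 0.41. Its part in the members' values was not tested.

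Different probes of a gene could differ in direction. Of 18 members with more than 1 tested probe, the probes had opposite signs in 7 after 2 h of SEMA3E (Arpc4, Arpc5, Wasl, Cttn, Diaph1, Cfl2 and Enah), in 6 after 8 h (Wasl, Abi2, Nckap1, Cttn, Gsn and Enah), and in 4 after cytochalasin D (Arpc4, Abi2, Pfn1 and Capza1). They did in 4 for cytochalasin D against SEMA3E 8 h (Nckap1, Diaph1, Pfn1 and Capza1). Between the SEMA3E times they did in 11, which were Arpc5, Wasl, Wasf2, Abi2, Nckap1, Cttn, Diaph2, Tmsb10, Cfl2, Capza1 and Enah. These are 38.9%, 33.3%, 22.2%, 22.2% and 61.1% of the 18, beside 45.1%, 39.4%, 46.5%, 42.4% and 48.7% of the 4812 genes with more than 1 tested probe. Spots of the same probe lay closer: over 10 members and 80 pairs of spots the median gap was 0.0956, against a median gap of 0.276 between replicate arrays of those members, and the widest was 1.23 in Ssh3.

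The stretches below are bases 31 to 60 of the 60-base probes of Arpc3 and Enah, chosen after their values were seen because their probes differed widely in spread, with the polyadenylation hexamer AATAAA in capitals where present. In both genes the hexamer was in probe 1. Gsn, not shown, held a hexamer (AATAAA or ATTAAA) in both of its probes, which ranged over 0.77 and 2.05.
Arpc3 probe 1: tggtacttaatatatAATAAAtgtcactgc
Arpc3 probe 2: tggatcgaatccggacaccgtcaagatgcc
Arpc3 probe 3: gacacacaggccgatgtgtctgttcatacc
Enah probe 1: tccattgctaaAATAAAgacgagaaaggct
Enah probe 2: ggtagggagtgtctgctgttacaccctgag

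Arpc3 probe 1 ranged over 1.13 and probe 2 over 4.89. Probe 2 was at -1.92 and -4.03 in controls, -1.76 and -1.96 after 2 h of SEMA3E, -1.93 and -2.64 after 8 h, and -4.41 and -6.65 after cytochalasin D. Its cytochalasin D pair was the lowest, -3.25 ± 0.86 from SEMA3E 8 h (limma adjusted p 0.40 over all probes), against -0.29 ± 0.33 for probe 1 and -0.59 ± 0.39 for probe 3. Enah probe 2 was at -6.18 and -1.99 in controls, -4.80 and -5.02 after 2 h, -4.50 and -2.71 after 8 h, and -2.0 and -2.80 after cytochalasin D, a range of 4.19 beside 0.29 for probe 1. The second Cttn probe, at -1.41 and 1.60, -1.04 and -0.89, -0.22 and 0.65, and 1.1 and 0.14, ranged over 3.02, and probe 1 over 0.79. Over the set, the 10 member probes with AATAAA or ATTAAA had a median range of 0.93 and the 55 without 1.34. Over all probes these medians were 1.04 and 1.30, and 15.4% of member probes and 16.4% of all held a hexamer. The median GC content of the member probes was 37.5% with a hexamer and 43.3% without.

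**Figure D4:**
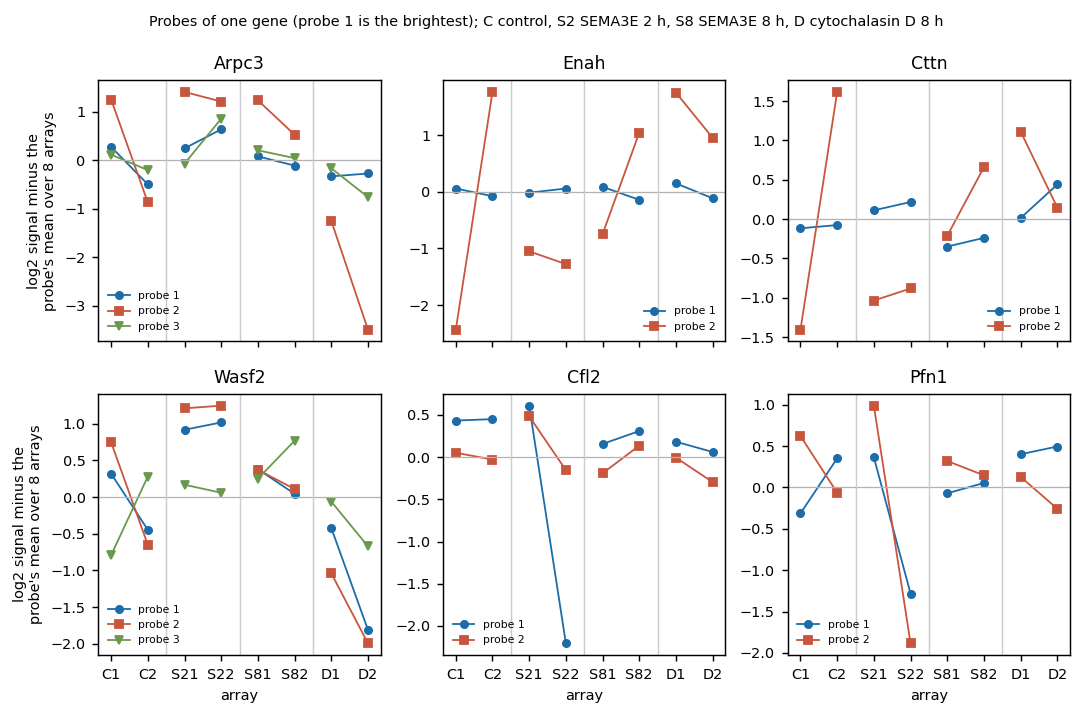
Log2 signal of each tested probe of 6 genes minus that probe's own mean (vertical axis) on the 8 arrays (horizontal axis), with lines joining the arrays of a group. Probe 1 of Enah stays within 0.29 while probe 2 spans 4.19, and probe 1 of Cfl2, but not probe 2, drops on SEMA3E 2 h replicate 2.

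Other actin assembly and turnover genes, a list of 59 with no member in it, gave 51 tested genes. None passed the adjusted test in any comparison. At an unadjusted limma p under 0.05, 1 was higher after 2 h of SEMA3E (Fhod1, a formin), and 0 were either way after 8 h or after cytochalasin D. For cytochalasin D against SEMA3E 8 h there were 3 higher (Arpin, Twf1 and Nck2) and 1 lower (Tesk2), and between the SEMA3E times 4 higher (Twf2, Inf2, Svil and Tmod1) and 0 lower. Of all genes, 9.47%, 6.14%, 2.44%, 11% and 11.6% were under that limit in either direction, in the same order of comparisons. The genes named from this list are no calls. The medians of the list were 0.02, 0.04, 0.06, -0.02 and 0.02. Arpin, an inhibitor of the Arp2/3 complex, was at -0.61 and -0.44 in controls, -0.46 and -0.50 after 2 h, -0.96 and -0.89 after 8 h, and -0.27 and 0.07 after cytochalasin D. The last pair was above the 8 h SEMA3E pair by 0.82 ± 0.25 (limma adjusted p 0.418). Fhod1 was at -2.57 and -2.75 in controls and at -1.91 and -1.71 after 2 h, 0.85 ± 0.27 higher (limma adjusted p 0.502). Among the others with the lowest p in a direction, the differences were -1.53 for Tmod1 after 2 h, 0.82 for Pdxp and -0.40 for Arpin after 8 h, and 0.79 for Nck2 and -0.52 for Washc4 after cytochalasin D. Tesk2 was at -0.95 for cytochalasin D against SEMA3E 8 h, and Svil was at 0.96 and Fhod1 at -0.55 between the SEMA3E times.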

How the data were processed

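The members and gene lists were chosen with earlier results of these data known. The authors deposited scanner text files of 8 one-colour Cy3 arrays, written by version 11.5.1.1 of Agilent Feature Extraction with mouse build mm9 as annotation, per the file headers. The deposited values used are spot intensities, the background-corrected processed signal. All arrays were on 1 slide with 1 scan date, and no pair of files was identical. Outlier spots were left out, repeated spots were averaged as log2 values, and each array was scaled to the 75th percentile of the 18687 probes above background on all 8 arrays. A probe was tested if it had a value on all 8 arrays (109 were lost to outlier marks) and was well above background on both arrays of a group. The brightest tested probe stood for its gene. Gene names were updated with RefSeq (1299 names). Differences came from limma 3.58.1 in R 4.3.3 (lmFit and eBayes, 4 group means over all 8 arrays, 4 residual and 3.39 prior degrees of freedom, two-sided, Benjamini-Hochberg over all genes). The procedure was tested on simulated data.

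The members named with a test were the 3 of lowest p in each direction per comparison, the widest and narrowest of each role, 8 paralog pairs and members whose probes disagreed. Lists were 59 other actin genes and markers of 5 cell types. Alternatives were normexp background, quantile scaling, other centres, filters, probe rules, outlier spots, an intensity trend, a replicate block, the deposited table, the compared groups alone and leaving out each array. No genome positions of probes were used.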

Additional observations from a re-analysis of the deposited data

How the results depend on the processing

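With 2 arrays in a group the fit had 4 residual degrees of freedom and a median standard error of 0.34, and dim probes such as those of Wasf3, Limk2 and Ssh3 were above background on only some arrays. The number of members called was 0 under most alternatives. After 2 h of SEMA3E it was 5 of 43 with normexp background (Diaph2, Limk2, Ssh3, Wasf2 and Wasf3, all higher). With that background 3415 of 18027 genes were called after 2 h, a larger share than that of the members. Of these 3375 were higher, and the median of all genes was 0.39. Leaving out single arrays gave 0 to 4 members there and 0 to 3 between the SEMA3E times, the highest without SEMA3E 2 h replicate 1. Centring on the median of all probes called 1 member in the F test, Wasf1. It moved the median of all genes to -0.53, -1.04, -0.15, 0.85 and -0.48 in the 5 comparisons and called 18, 0, 2, 7, 35 and, in the F test, 127 genes. The deposited table, on its own gene set, called 20, 14, 9, 13, 20 and 22 genes. Under the mean of a gene's probes 2 genes were called after 8 h of SEMA3E, and without either SEMA3E 2 h array 2 were. Without control replicate 1, 1 gene was called after 2 h of SEMA3E and after cytochalasin D, and the latter also without either SEMA3E 2 h array. The 1 gene called after 8 h of SEMA3E, and for cytochalasin D against SEMA3E 8 h, was not called under quantile scaling and several other alternatives.

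Among the 6 members with the lowest p in each comparison, directions turned in these cases, and the cause was not tested. After 2 h of SEMA3E, Diaph1 was 0.036 with normexp and 0.11 with the mean of probes, and Arpc3 was -0.040 with the median of all probes. After 8 h, Diaph2, Limk2 and Arpc4 were -0.43, -0.47 and -0.73 with the median of all probes. For cytochalasin D against SEMA3E 8 h, Limk2 was 0.090 with normexp, and Wasf3 was 0.20 with normexp, 0.0055 with quantile scaling and 0.073 with the median of all probes. Between the SEMA3E times, Diaph1 was -0.022 with normexp, and Cttn was 0.017 with normexp and quantile scaling, 0.36 with the mean of probes and 0.44 in the deposited table. Leaving out single arrays, Limk2 after 8 h ranged from -0.051 to 1.43 and Diaph2 between the SEMA3E times from -1.32 to 0.0055. Over all 43 members the sign turned without 1 array in 22, 25, 24, 14 and 17.

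Deviations of same-numbered arrays correlated at 0.141, 0.122, -0.0137, -0.135, -0.0276 and -0.146 in the 6 pairs of groups. With 2 arrays in a group these values cannot show whether same-numbered samples were paired, and the labels state no block. With the replicate number as a block 0 members were called in every comparison, and 7 genes after 8 h of SEMA3E against 1 without it.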
